A study of Mus musculus with 16 samples.

Results

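Lysosomes are the acidic organelles in which macrophages take apart what they engulf. Their lumen holds glycosidases and other hydrolases, with cofactors and lipid carriers, and their membrane carries heavily glycosylated proteins and channels. A multi-subunit proton pump, the vacuolar ATPase (V-ATPase), acidifies the lumen, and the transcription factors TFEB and TFE3 are known to switch on many lysosomal genes together. The RNA of 38 such genes, of 30819 genes in the deposited matrix, is described here across 4 groups of sorted tumour myeloid cells. The genes were taken by their symbols from a list that left out the cathepsins. They comprised 10 glycosidases, 9 other lumenal hydrolases or lipid-handling proteins, 7 membrane proteins, 10 V-ATPase subunits and 2 regulators.

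The cells came from subcutaneous tumours of MN/MCA1, a transplantable mouse sarcoma line, taken 21 days after tumour cells were injected into C57BL/6J mice. The hosts were wild type (mice 1 to 4) or C3-/- (mice 6 to 9). C3 is the central component of complement, and the labels give the tumour cells no C3 genotype of their own. Each mouse gave a library of macrophages (Ly6C- F4/80+) and one of monocytes (Ly6C+ F4/80-), both sorted as CD45+ CD11b+ Ly6G- CD11c- cells, so each of the 4 groups held 4 mice and the 16 libraries came from 8 animals. The question was how the loss of host C3 changes these cells inside the tumour.

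Each library held 18689466 to 29030460 recovered reads. The targeted gene went with the labels: C3 transcripts in knockout macrophages were at 0.308 of wild type, and in knockout monocytes at 0.325, with no overlap between genotypes. Macrophage markers also went with the sort, since 9 of 9 tested were higher in macrophages than in monocytes of wild-type mice, and 8 of 8 classical monocyte markers were lower. Fibroblast or sarcoma markers were not absent, and 9 of 9 tested were lower in wild-type macrophages than in monocytes, with summed levels of 35265 to 64066 against 102531 to 135895 normalized reads. Fn1, which macrophages are also known to express, made up most of these sums (means of 48500 and 108000), while Col1a1 averaged 6.32 and 6.80 and Lum and Thy1 were under 10 in every group. Normalized reads are the recovered reads after division by each library's size factor. Differences are given on the deposited log2 scale, which draws values together, so that ratios of mean normalized reads are larger than the log2 differences alone would give.

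Of the 38 genes, 37 had reads in every library and passed the filter on low values in all 5 comparisons. The exception was Atp6v1c1, whose row holds an Ensembl identifier that is not in the GENCODE M21 annotation and had 3 reads in all, in 3 libraries. It is given no value here. Levels per kilobase of merged exon covered a wide range. In wild-type macrophages Psap, the precursor of the saposins that present lipids to hydrolases, led with 47400 ± 2300 normalized reads per kilobase (SD, n = 4). Cd68 followed with 20300 ± 694, Lamp1 with 10800 ± 738 and Hexa with 9090 ± 292. The lowest per kilobase were Galc with 70.4 ± 7.73 and Npc1 with 70.2 ± 9.06, which did not differ beyond their spread. This order depends on the merged length of all annotated exons, 14879 bases for Galc and 11317 for Npc1. In normalized reads the means of Atp6v0d2 (726) and Smpd1 (730) lay below those of Npc1 (794) and Galc (1048). TFEB and TFE3 were also modest, with 205 ± 5.01 and 445 ± 11.5 normalized reads per kilobase for their genes.

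TFEB and TFE3 bind an element that centres on the palindrome CACGTG. RefSeq windows of 250 bases before to 50 after the start site (GRCm38.p6) matched 31 of the 38 genes by symbol. CACGTG, which reads the same on both strands, lay in a window of 9 of these 31 genes (29%), against 8.09% of all 27025 genes with a window. The longer palindrome TCACGTGA, which contains it, lay in 4 of 31 (12.9%) against 1.12% of all. One site of each of the 9 genes is shown, to let the element known to bind these factors be compared among the genes described here. Each run is 28 bases on the gene's strand, 5′ to 3′, with the palindrome in capitals.
Atp6v1a (chr16:44139374-44139401, minus strand): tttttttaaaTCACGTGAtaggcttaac
Atp6v0d1 (chr8:105566051-105566078, minus strand): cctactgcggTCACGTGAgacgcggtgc
Mcoln1 (chr8:3500463-3500490, plus strand): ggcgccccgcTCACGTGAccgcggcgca
Gla (chrX:134601183-134601210, minus strand): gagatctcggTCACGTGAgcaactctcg
Naglu (chr11:101070010-101070037, plus strand): aaccttcaggtCACGTGgcccgaggtcg
Glb1 (chr9:114401019-114401046, plus strand): tgcttctgagtCACGTGgcctacagagg
Gaa (chr11:119267812-119267839, plus strand): ttctgtgcgatCACGTGtttgactctga
Lamp1 (chr8:13159135-13159162, plus strand): cgtgaccacatCACGTGcggaacggagc
Atp6v0b (chr4:117887331-117887358, minus strand): ggtcggcgcatCACGTGcgccggtcagg
The match in Atp6v0d1 begins 4 bases before the RefSeq start site and that in Atp6v1a 132 bases before it. GENCODE M21 places some starts elsewhere, and by its positions the matches shown for Atp6v1a, Naglu and Mcoln1 lie inside the gene. Lamp1 holds 4 matches, beginning 61, 45, 28 and 15 bases before its start site. Of the 9 genes with a match 3 fell in knockout macrophages (Atp6v1a, Glb1 and Naglu; limma, adjusted p under 0.05). Of the 22 with a window and no match 5 fell, and of the 7 without a window 2 fell (Atp6v0d2 and Atp6v1b2). Over all genes tested 3.13% were called lower. Whether a match goes with a fall was not tested. A match in a window is a description of the sequence and not a measured binding site.

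The first question was how the 2 cell types differ. Most glycosidases were higher in macrophages than in monocytes, by 1.58-fold to 2.82-fold in wild-type mice. Lipa, Tpp1 and the membrane protein gene Cd63 were higher as well, while Gm2a, Npc2 and both regulators were lower. V-ATPase subunits stayed close to equal apart from Atp6v0a1 and Atp6v0d2. Of 37 genes tested in wild-type mice, 17 were higher in macrophages and 8 lower (limma, adjusted p under 0.05), where 31.7% of all genes were called higher and 31.7% lower. In knockout mice 15 were higher and 7 lower, where 31.0% of all genes were called higher and 29.6% lower. The calls shared by both genotypes were 14 higher and 5 lower. With TMM scaling, another way to bring libraries to 1 scale, the lower calls dropped to 5 in wild type and 4 in knockout, and the higher calls were 18 and 15.

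**Figure D1:**
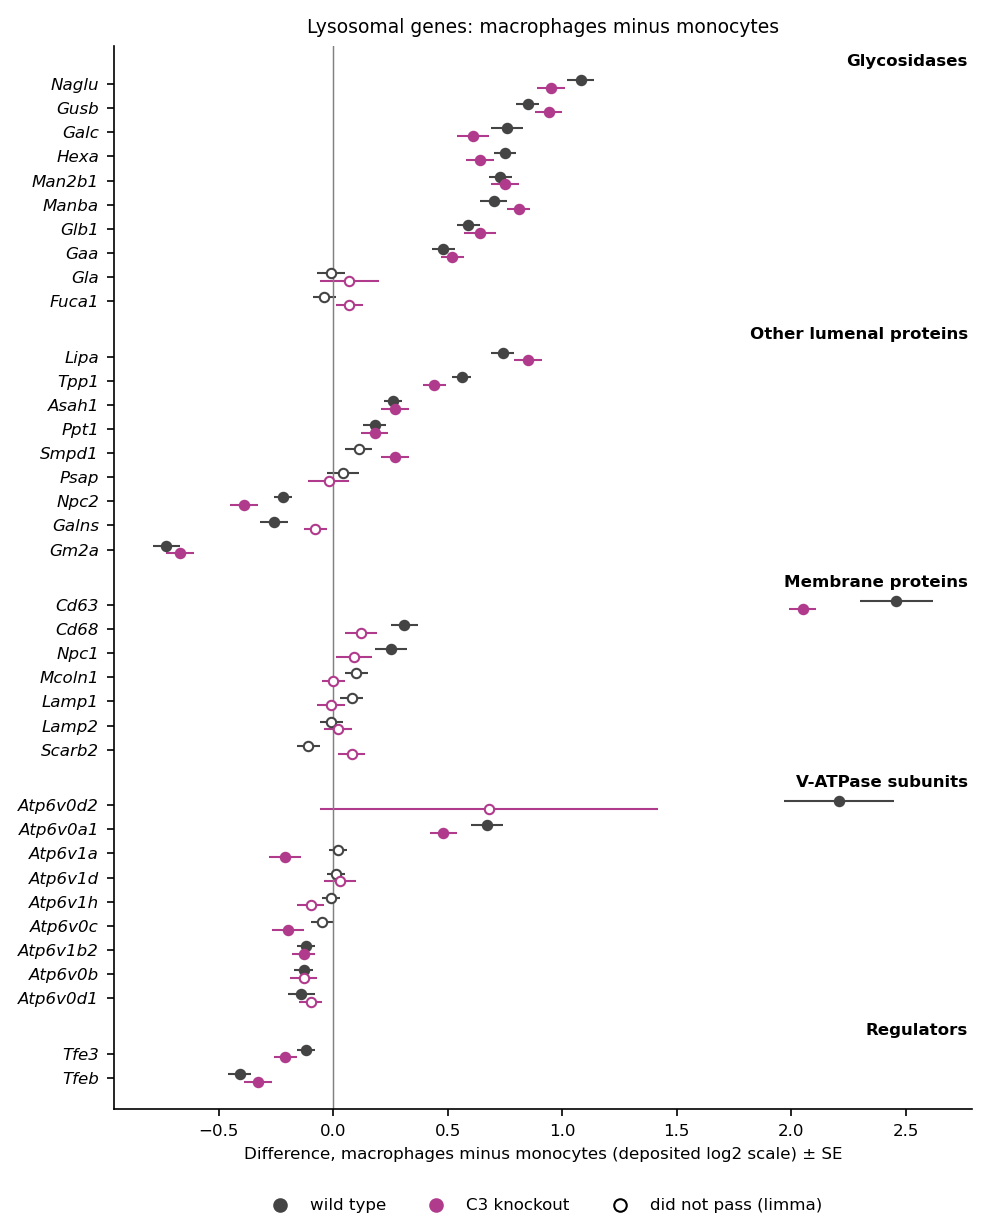
Difference between macrophages and monocytes (x axis, deposited log2 scale, macrophages minus monocytes, bars ± SE) of 37 lysosomal genes in wild-type and C3 knockout mice, with 4 libraries per group. Filled points passed limma at an adjusted p under 0.05. Glycosidases lie between 0.48 and 1.08 in wild type except Gla and Fuca1, and most V-ATPase subunits lie near 0.

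Among the glycosidases, 8 of 10 were higher in macrophages in both genotypes, with a median difference over the group of 0.72 in wild type and 0.64 in knockout, against -0.01 and 0.00 over all genes tested. Naglu encodes the N-acetylglucosaminidase that trims heparan sulfate. It stood at 3897, 4239, 4211 and 4173 normalized reads in macrophages of wild-type mice 1 to 4, and at 1299, 1356, 1724 and 1475 in their monocytes. In knockout mice 6 to 9 it stood at 2991, 3342, 3359 and 2871 in macrophages and 1216, 1210, 1387 and 1122 in monocytes. The lowest macrophage library lay well above the highest monocyte library in each genotype. The difference was 1.08 ± 0.06 in wild type (SE; limma adjusted p = 4.37e-08) and 0.95 ± 0.06 in knockout (5.93e-08). Gusb, the beta-glucuronidase gene, stood at 16639, 17720, 17495 and 17122 in wild-type macrophages against 6827, 7681, 8058 and 7780 in monocytes. In knockout mice Gusb stood at 15173, 16706, 15813 and 17574 against 6827, 6179, 6078 and 7234. All macrophage libraries lay at nearly the same level, and the gap was 2.27-fold in wild type and 2.48-fold in knockout. Hexa, which encodes the alpha chain of beta-hexosaminidase, was 2.06-fold higher in wild type and 1.86-fold in knockout. Man2b1 (alpha-mannosidase, 2.02-fold and 2.08-fold), Galc (galactosylceramidase, 2.10-fold and 1.82-fold) and Manba (beta-mannosidase, 1.96-fold and 2.21-fold) lay close to it. Glb1 (beta-galactosidase, 1.77-fold and 1.86-fold) and Gaa (the glycogen-degrading alpha-glucosidase, 1.58-fold and 1.66-fold) were called as well, and Gaa differed least of the 8 in both genotypes. Gla, the alpha-galactosidase gene, and Fuca1, the fucosidase gene, did not pass. Gla lay at -0.01 in wild type and 0.07 in knockout, and Fuca1 at -0.04 in wild type and 0.07 in knockout.

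The other lumenal genes were split. Of 9, 4 were higher and 3 lower in wild-type macrophages, and 5 were higher and 2 lower in knockout macrophages. Lipa, the acid lipase that frees cholesterol from engulfed lipoproteins, stood at 6818, 7308, 7156 and 6956 normalized reads in wild-type macrophages and 3175, 3260, 3911 and 3595 in monocytes. In knockout mice it stood at 6235, 7391, 6882 and 5777 in macrophages and 2656, 2806, 2863 and 3105 in monocytes. The cell types did not overlap, and the difference was 0.74 ± 0.05 in wild type (SE; limma adjusted p = 2.48e-07) and 0.85 ± 0.06 in knockout (2.18e-07). Tpp1, a tripeptidyl peptidase gene, stood at 9775, 9649, 9817 and 10117 in wild-type macrophages against 5472, 6058, 5912 and 5588 in monocytes, a 1.71-fold gap. In knockout mice Tpp1 stood at 8171, 8794, 8074 and 8293 against 5218, 5605, 5351 and 5530, a 1.54-fold gap. Gm2a encodes the activator that lifts GM2 ganglioside out of membranes for beta-hexosaminidase, and it went the other way from Hexa. Gm2a stood at 16639, 18776, 17257 and 16809 in wild-type macrophages against 30640, 36037, 36689 and 37967 in monocytes. In knockout mice it stood at 15665, 18346, 18419 and 17460 against 32620, 34606, 34555 and 31993. Each monocyte library lay above every macrophage library, with differences of -0.73 ± 0.06 (SE; limma adjusted p = 5.83e-07) and -0.67 ± 0.06 (5.83e-07). Npc2, the soluble cholesterol carrier, stood at 13526, 14651, 14250 and 13356 in wild-type macrophages against 17010, 17298, 18422 and 16217 in monocytes. In knockout mice Npc2 stood at 11556, 13279, 13961 and 12799 against 19920, 17047, 19954 and 18266. Macrophages were thus at 0.809 of the monocyte mean in wild type and at 0.686 of it in knockout, without overlap. Galns, a sulfatase gene, stood at 1075, 1189, 1232 and 1298 in wild-type macrophages against 1309, 1614, 1645 and 1584 in monocytes, which was lower (limma adjusted p = 0.00385). In knockout mice Galns stood at 1205, 1265, 1165 and 1205 against 1346, 1399, 1294 and 1199 and did not pass. Asah1 (acid ceramidase, 0.26 and 0.27) and Ppt1 (a thioesterase, 0.18 and 0.18) were higher in both genotypes, although Ppt1 in knockout lost its call when macrophage mouse 7, 8 or 9 or monocyte mouse 7 was left out (limma adjusted p up to 0.0702). Smpd1, acid sphingomyelinase, passed in knockout (0.27) and stood at 0.11 in wild type. Psap did not pass in either.

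Among the 7 membrane proteins, Cd63 had the widest gap. CD63 is a tetraspanin of late endosomes and lysosomes, and its gene (GRCm38 chromosome 10, 128900989 to 128912822) stood at 17506, 17257, 18517 and 17027 normalized reads in wild-type macrophages and 2455, 1094, 2130 and 1174 in monocytes of the same mice. In knockout mice Cd63 stood at 11539, 13032, 10962 and 12337 against 1526, 1561, 1488 and 1816. The gap was 10.3-fold in wild type (2.46 ± 0.16 SE, limma adjusted p = 1.91e-06) and 7.49-fold in knockout (2.05 ± 0.06, 7.25e-11). Cd68, a macrophage scavenger receptor of the LAMP family, stood at 25473, 24793, 25051 and 26757 in wild-type macrophages against 15681, 19820, 19891 and 20571 in monocytes. This difference passed (limma adjusted p = 0.000862). In knockout mice Cd68 stood at 22442, 25695, 23304 and 23702 against 19544, 18851, 22440 and 24147, which overlap and did not pass (adjusted p = 0.132), although the call appeared without monocyte mouse 9 (0.0428). Npc1, the membrane partner of NPC2 in cholesterol export, was 1.28-fold higher in wild type and 1.09-fold, without passing, in knockout. The abundant coat proteins of the lysosomal membrane, Lamp1 (0.08 and -0.01) and Lamp2 (-0.01 and 0.02), did not pass in either genotype. The calcium channel gene Mcoln1 (0.10 and 0.00) and Scarb2 (-0.11 and 0.08) did not pass either, although TMM scaling called Mcoln1 higher in wild type (limma adjusted p = 0.035). With the mouse as a replicate block, Scarb2 was lower in wild-type macrophages than in monocytes (limma adjusted p = 0.0238), and without monocyte mouse 1 it was called as well (range over all fits 0.0238 to 0.164). In knockout mice Scarb2 was called higher in macrophages only without monocyte mouse 6 (adjusted p = 0.0344).

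The V-ATPase subunits had a median difference of -0.01 in wild type and -0.10 in knockout. Per kilobase the subunits differed more from each other than between cell types, as the plot of V-ATPase levels shows. In wild-type macrophages they ran from 267 ± 44.2 normalized reads per kilobase for Atp6v0d2 and 386 ± 16.2 for Atp6v1h to 1880 ± 32.6 for Atp6v1b2 and 3220 ± 78.6 for Atp6v0b (SD, n = 4). Atp6v0a1, a variant of the large membrane subunit, stood at 3135, 3386, 3750 and 3830 normalized reads in wild-type macrophages and 1540, 2118, 1793 and 1974 in monocytes. In knockout mice Atp6v0a1 stood at 3066, 3252, 3034 and 2820 against 1781, 1860, 1839 and 2164. Macrophages were higher without overlap in both genotypes (1.90-fold and 1.59-fold). The remaining calls were small. Atp6v0b, which codes for a subunit of the proton-conducting membrane ring, stood at 6723, 6739, 6513 and 6411 in wild-type macrophages and at 7300, 7679, 7421 and 7570 in monocytes (limma adjusted p = 0.00822). In knockout mice it stood at 6172, 6410, 6049 and 6282 against 7763, 6773, 7737 and 6229 and did not pass, although it was called with all 16 libraries in 1 fit and without monocyte mouse 9 (adjusted p from 0.0162). Atp6v0d1 stood at 2492, 2782, 2903 and 2973 in wild-type macrophages and at 2923, 3475, 3035 and 3383 in monocytes, which overlap. That call (limma adjusted p = 0.0395) was lost with no filter, with TMM scaling and without macrophage mouse 1 or 2 or monocyte mouse 2 or 4 (up to 0.116). Atp6v1b2 was lower in wild-type macrophages as well (9846 to 10220 against 10578 to 11674, adjusted p = 0.0184), a call lost with TMM scaling (0.0525).

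In knockout macrophages 3 subunits were lower than in monocytes, and TMM scaling lost all 3 calls. Atp6v0c, which encodes the main ring subunit, stood at 4945, 5959, 6039 and 4959 in macrophages and 6733, 6165, 7437 and 6216 in monocytes (limma adjusted p = 0.0204), and in wild type at 5653, 6435, 6207 and 6176 against 5871, 6627, 6622 and 6443, without passing. Its call was also lost without macrophage mouse 6 or 9 or monocyte mouse 8 (up to 0.067). Atp6v1a stood at 5099, 6488, 5478 and 5676 in knockout macrophages and 5798, 7697, 7210 and 7185 in monocytes (adjusted p = 0.0243), and in wild type at 7585, 7918, 7947 and 8163 against 7734, 8056, 7192 and 8052, where the cell types overlap. Its call was lost without macrophage mouse 6 or 8 or monocyte mouse 7, 8 or 9 (up to 0.0738). Atp6v1b2 (7973 to 9470 against 9429 to 9742, adjusted p = 0.0411) lost its call without macrophage mouse 6, 8 or 9 or any 1 of the 4 monocyte libraries (up to 0.128).

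**Figure D2:**
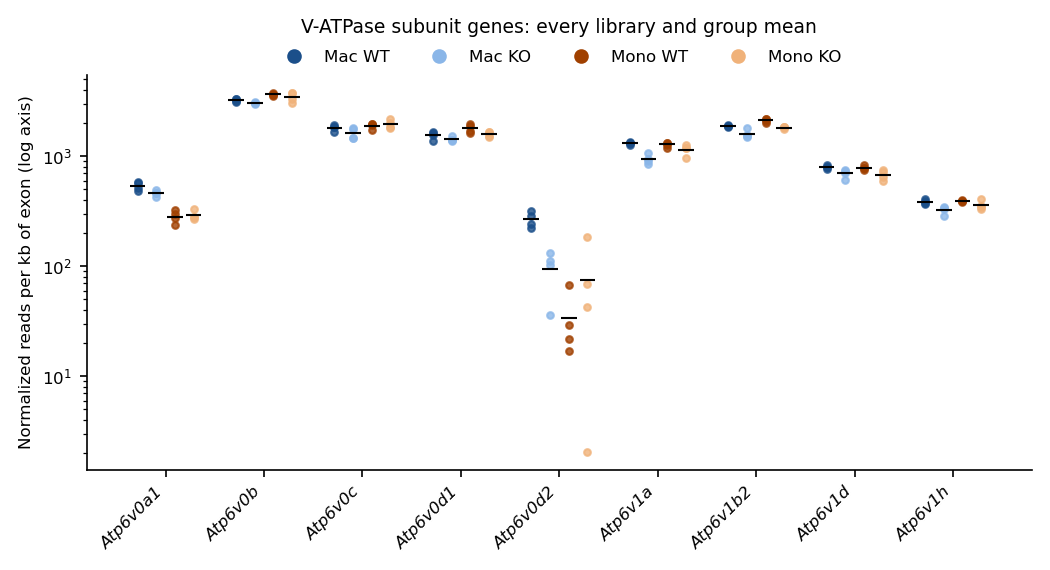
Normalized reads per kilobase of merged exon (y axis, log scale) for 9 V-ATPase subunit genes in each of the 16 libraries (points), with the mean of each group of 4 mice (line). Atp6v0d2 is the subunit whose groups lie farthest apart, at 267 in wild-type macrophages, 95.1 in knockout macrophages, 33.9 in wild-type monocytes and 74.6 in knockout monocytes.

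Atp6v0d2 and Atp6v0d1 encode alternative forms of the d subunit, which joins the membrane ring to the stalk of the pump. Per kilobase, Atp6v0d2 reached 20.5%, 14.3%, 19.8% and 14.6% of the level of Atp6v0d1 in macrophages of wild-type mice 1 to 4. The shares were 7.97%, 6.68%, 2.53% and 9.41% in knockout macrophages, all below the wild-type range. Wild-type monocytes had shares of 1.34%, 0.878%, 3.98% and 1.55%. Knockout monocytes had 0.126%, 4.71%, 11.1% and 2.78%, which overlap with them. In normalized reads, Atp6v0d2 stood at 773, 604, 872 and 656 in wild-type macrophages and 302, 279, 97.4 and 355 in knockout macrophages. Its monocyte libraries held 59.3, 46.2, 183 and 79.6 in wild-type mice against 5.64, 189, 501 and 115 in knockout mice. It was 7.89-fold higher in macrophages of wild-type mice (2.21 ± 0.24 SE, limma adjusted p = 3.11e-05) and did not pass in knockout mice, where the libraries of both cell types overlap (adjusted p = 0.461).

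The 2 regulators were lower in macrophages. Tfeb stood at 1150, 1128, 1188 and 1182 normalized reads in wild-type macrophages and 1559, 1834, 1761 and 1789 in monocytes, and at 1197, 1224, 1240 and 1037 against 1563, 1605, 1813 and 1477 in knockout mice. No macrophage library reached a monocyte library (-0.41 ± 0.05 SE, limma adjusted p = 1.54e-05 in wild type; -0.33 ± 0.06, 0.000678 in knockout). Tfe3 stood at 3979, 4234, 4114 and 4152 in wild-type macrophages and 4678, 4685, 4364 and 4733 in monocytes. In knockout mice Tfe3 stood at 3881, 4109, 3954 and 3733 against 4730, 5052, 4788 and 4711. Its difference was -0.12 ± 0.04 in wild type, which was lost with TMM scaling and without macrophage mouse 1 or monocyte mouse 4 (limma adjusted p = 0.019, range 0.00978 to 0.0575), and -0.21 ± 0.05 in knockout (adjusted p = 0.00168). RNA does not show where in the cell these factors are, which is how their activity is known to be controlled.

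**Figure D3:**
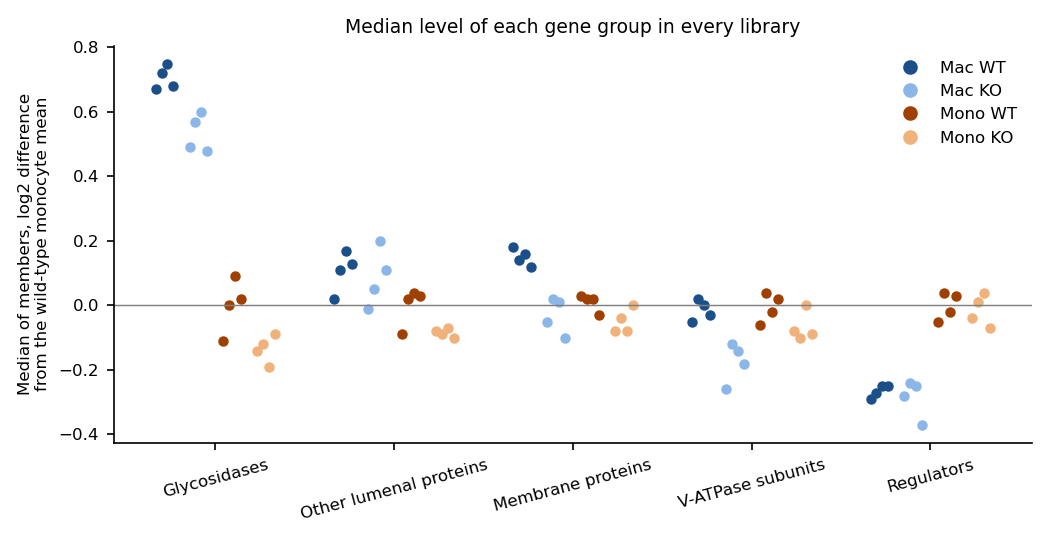
Median over the genes of each group of the log2 difference from the wild-type monocyte mean (y axis), with 1 point per library and 4 mice per group. Glycosidases lie at 0.67 to 0.75 in wild-type macrophages and 0.48 to 0.60 in knockout macrophages, and the regulators lie below 0 in all 8 macrophage libraries.

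The next question was what changed in macrophages of C3 knockout mice. Lysosomal genes that changed all fell, and most of the changes were modest. Cd63 fell to 0.681 of the wild-type mean, Scarb2 to 0.707, the pump subunit Atp6v1a to 0.719, Naglu to 0.760 and the low-abundance subunit Atp6v0d2 to 0.356. In all, 10 of 37 fell and 0 rose (limma, adjusted p under 0.05), where 3.13% of all genes were called lower and 2.57% higher. At an unadjusted p under 0.05, 18 were lower and 0 higher, where 1352 of 12568 genes were lower and 1188 higher. The voom fit on the recovered reads gave 10 lower and 0 higher, with 670 genes called in all. The median difference was -0.12, against 0.00 over all genes tested, and 32 of 37 lay below 0. In 17 of 37 every knockout library lay below every wild-type library, against 7.03% of all genes, and in 0 of 37 it was the other way. The count of 10 depended on single libraries: it was 6, 5, 5 and 4 without wild-type mice 1, 2, 3 and 4, 5 without knockout mouse 6 and 5 with all 16 libraries in 1 fit. Naglu, Scarb2 and Atp6v1a fell in the authors' deposited table and in all of the 13 alternatives.

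**Figure D4:**
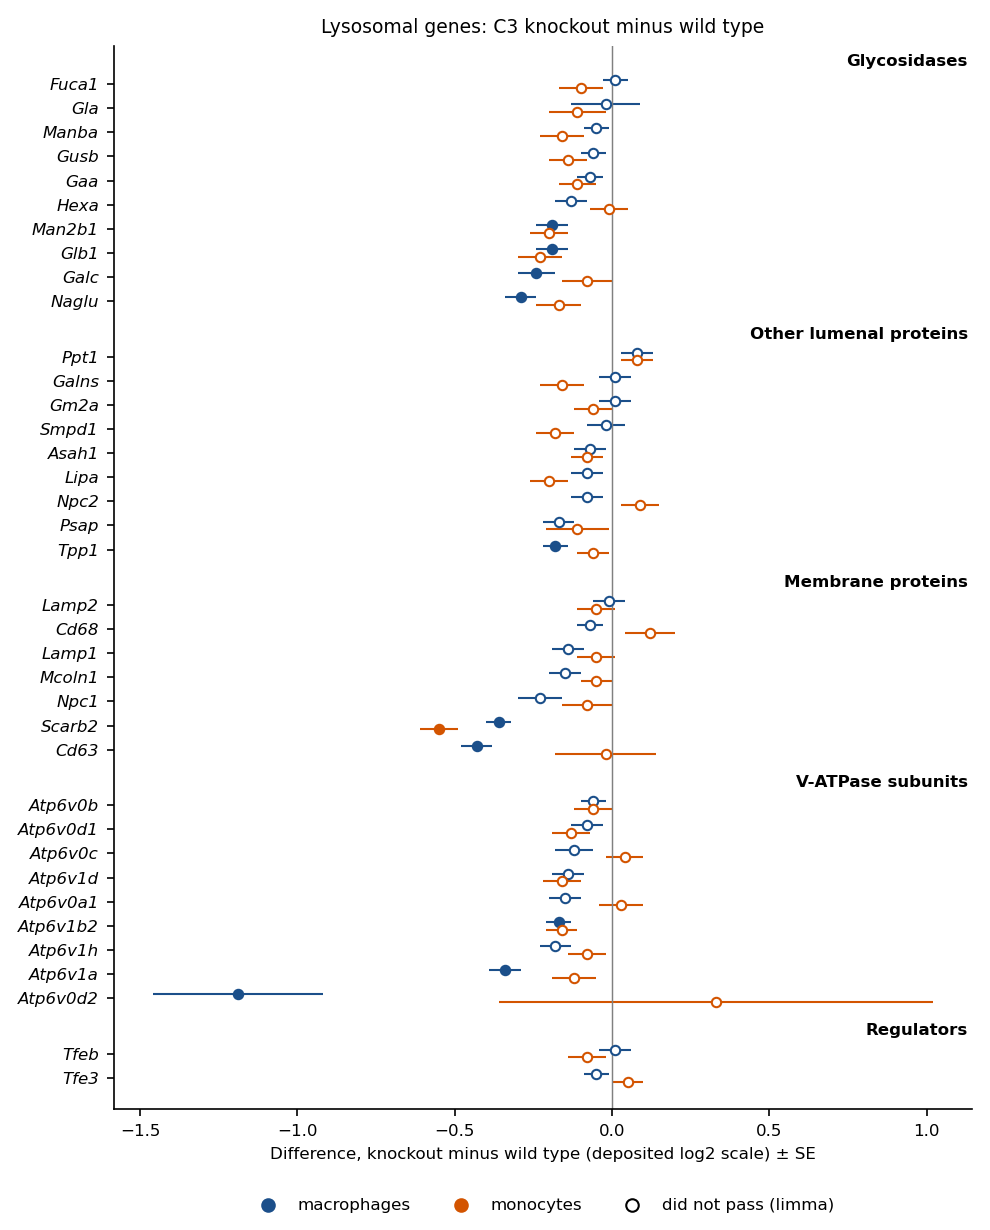
Difference between C3 knockout and wild type (x axis, deposited log2 scale, knockout minus wild type, bars ± SE) of 37 lysosomal genes in macrophages and monocytes, with 4 libraries per group. Filled points passed limma at an adjusted p under 0.05: 10 genes in macrophages and Scarb2 in monocytes, all to the left of 0.

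Of the 10 glycosidases 4 fell, with a median over the group of -0.10. Naglu (chromosome 11, 101070012 to 101077672), with the values given above, fell in macrophages by 0.29 ± 0.05 on the log2 scale (SE; limma adjusted p = 0.00337, range over fits 0.000911 to 0.0161). Its highest knockout library, 3359, lay below its lowest wild-type library, 3897. Galc stood at 921, 1008, 1069 and 1194 normalized reads in wild type and 841, 848, 863 and 787 in knockout macrophages. Glb1 stood at 2089, 2045, 2104 and 2009 against 1590, 1846, 1625 and 1853, and Man2b1 at 34845, 36429, 37556 and 35068 against 28215, 31483, 33067 and 28102. The genotypes did not overlap for any of these 3 genes. Their calls lay near the threshold, at adjusted p = 0.0412 for Galc, 0.0388 for Glb1 and 0.0464 for Man2b1 (limma), and each was lost in 9 of 13 alternatives, with a highest adjusted p of 0.107, 0.101 and 0.128. Among the single libraries, leaving out wild-type mouse 2, 3 or 4 or any knockout mouse ended the call of Galc. Any wild-type mouse or knockout mouse 6 or 8 ended that of Glb1, and any wild-type mouse or knockout mouse 6, 7 or 9 that of Man2b1. Hexa stood at 0.889 of the wild-type mean without overlap and did not pass (adjusted p = 0.15). Gusb, Gla, Gaa, Manba and Fuca1 lay between -0.07 and 0.01 and did not pass. Exons of Glb1, Galc and Hexa overlap those of other annotated genes (Tmppe, Gm47439 and Tmem202), and the library kit does not mark strand, so their reads cannot be told apart. The same holds outside the glycosidases for Ppt1 (Cap1), Npc1 (Gm15956 and Rmc1), Lamp1 (Grtp1), Atp6v0b (Gm12841) and Atp6v1h (Rgs20).

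Of the 9 other lumenal genes Tpp1 fell. Tpp1 (chromosome 7, 105744811 to 105752235) stood at 9775, 9649, 9817 and 10117 normalized reads in wild-type macrophages and 8171, 8794, 8074 and 8293 in knockout macrophages, again without overlap. The difference was -0.18 ± 0.04 (SE; limma adjusted p = 0.0162), and the call was lost without wild-type mouse 4 (adjusted p = 0.0599). Within 1 Mb of Tpp1, 6 of 18 tested genes were called in macrophages, where 717 of all 12568 genes tested were called. Around Smpd1, which did not pass (-0.02), 6 of 17 were called. The 2 genes lie in the same stretch of the chromosome, so these windows overlap and share most of their genes. In monocytes 5 of 19 were called around Tpp1 and 4 of 18 around Smpd1, where 427 of all 12867 were called. Whether the value of Tpp1 is shared with its neighbourhood was not tested. Psap stood at 0.851 of the wild-type mean without overlap and did not pass (adjusted p = 0.0921, range over fits 0.0542 to 0.341). Galns, Asah1, Gm2a, Npc2, Ppt1 and Lipa lay between -0.08 and 0.08.

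Of the 7 membrane proteins 2 fell, and all 7 lay below 0. Cd63, whose single libraries are given above, averaged 17577 ± 657 normalized reads in wild-type macrophages and 11967 ± 907 in knockout macrophages (SD, n = 4). The difference was -0.43 ± 0.05 (SE; limma adjusted p = 0.000215). Its call was lost in the authors' deposited table and in the fit of all 16 libraries (highest adjusted p = 0.077). Scarb2 (chromosome 5, 92441314 to 92506833) encodes LIMP-2, which carries glucocerebrosidase to the lysosome. It stood at 3926, 4022, 4097 and 3603 normalized reads in wild-type macrophages and 2679, 2845, 2866 and 2673 in knockout macrophages. The gap between the groups was wider than the spread within either, and the difference was -0.36 ± 0.04 (SE; limma adjusted p = 0.00034, range over fits 1.24e-07 to 0.00243). Within 1 Mb of Scarb2, 3 of 18 tested genes were called in macrophages, where 717 of all 12568 genes tested were called. Whether the value of Scarb2 is shared with its neighbourhood was not tested. Npc1 (0.795 of the wild-type mean) and Mcoln1 (0.865) did not overlap between genotypes and did not pass (limma adjusted p = 0.0812 and 0.092), while the authors' deposited table called Mcoln1 (adjusted p = 0.0198). Lamp1, Lamp2 and Cd68 lay at -0.14, -0.01 and -0.07.

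All 9 tested V-ATPase subunits lay below 0 in knockout macrophages, with a median of -0.15, and 3 passed. In each of the 4 knockout libraries all 9 subunits lay below their wild-type mean. Single wild-type libraries had 2 to 7 of 9 below it, but they make up that mean and must lie around it. The 2 kinds of count are therefore not alike, and subunits of 1 library are not independent. Atp6v1a (chromosome 16, 44085402 to 44139705), the catalytic subunit that hydrolyses ATP, stood at 7585, 7918, 7947 and 8163 normalized reads in wild type and 5099, 6488, 5478 and 5676 in knockout macrophages. The groups did not overlap, and the difference was -0.34 ± 0.05 (SE; limma adjusted p = 0.00201, range over fits 1.12e-05 to 0.0102). Atp6v1b2, its partner subunit in the cytosolic ring, stood at 9846, 9897, 10220 and 9887 against 8148, 9470, 7973 and 8321. Its call (-0.17 ± 0.04 SE, limma adjusted p = 0.0489) was lost in 9 of 13 alternatives, among them the fits without any 1 of the wild-type mice or without knockout mouse 6, 8 or 9, with a highest adjusted p of 0.122. Atp6v0d2 (chromosome 4, 19876841 to 19922605), with the values given above, differed most (-1.19 ± 0.27 SE, limma adjusted p = 0.0475). That call was lost in 8 of 13 alternatives, among them the fits without any 1 of the 4 wild-type mice and without knockout mouse 6 or 7, with a highest adjusted p of 0.347. The ubiquitous form Atp6v0d1 stood at 0.922 of the wild-type mean. Atp6v1d, Atp6v1h and Atp6v0b did not overlap between genotypes and did not pass, and the authors' deposited table called Atp6v1h (adjusted p = 0.0329). Atp6v0a1 and Atp6v0c lay at -0.15 and -0.12.

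The regulators did not pass in knockout macrophages. Tfeb lay at 0.01 (limma adjusted p = 0.95) and Tfe3 at -0.05 (adjusted p = 0.49), with overlapping libraries.

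**Figure D5:**
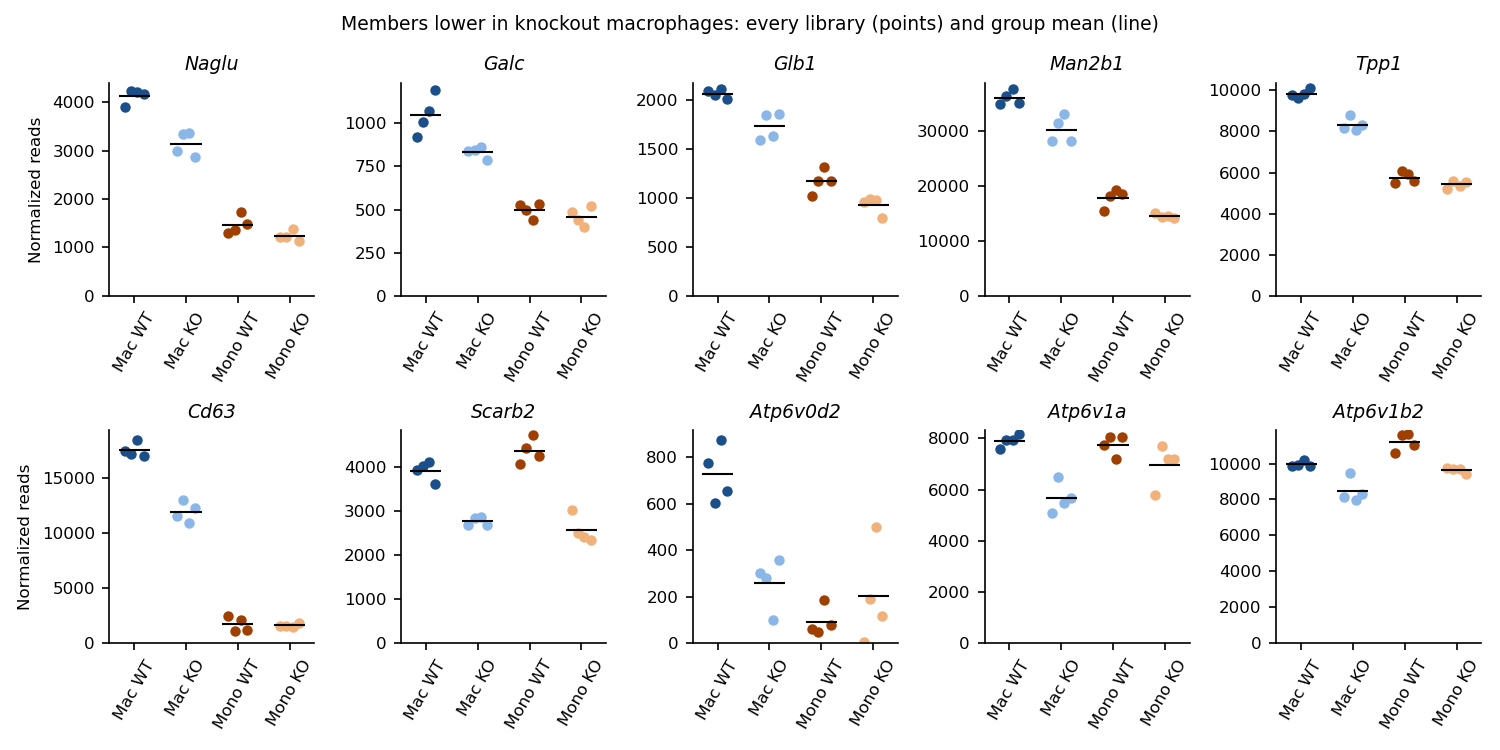
Normalized reads (y axis, starting at 0) of the 10 lysosomal genes that fell in knockout macrophages, in each library (points) with the group mean (line), 4 mice per group. In macrophages the knockout points lie below the wild-type points for all 10, and Scarb2, Glb1, Man2b1 and Atp6v1b2 show the same separation in monocytes.

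Markers of cell identity moved with genotype in macrophages as well. Of 9 macrophage markers tested 5 fell and 0 rose, and their summed level, led by Apoe, was 734326 to 865736 normalized reads in wild type and 566176 to 691329 in knockout. Apoe averaged 452000 in wild type and 305000 in knockout. Means of Adgre1 (27300 and 26300), C1qa (65400 and 60100), C1qb (124000 and 122000) and C1qc (99600 and 95300) lay closer together. Those of Mrc1 (6060 and 4610), Mertk (2550 and 1620), Ms4a7 (25900 and 21200) and Vcam1 (1380 and 329) lay further apart. The summed classical monocyte markers were 11519 to 14033 in wild type and 14164 to 20148 in knockout, without overlap and with 0 of 8 called. That sum was mostly Ccr2 (11500 and 15000 on average), and the means of 6 of the other 7 genes were lower in knockout, F13a1 for one at 1440 and 1310. Red blood cell markers fell in 4 of 4, with sums of 428 to 1272 and 145 to 242. Sums of dendritic cell markers (173 to 263 and 342 to 384, 1 of 6 tested higher), B or plasma cell markers (57.5 to 99.8 and 135 to 200, 1 of 2 tested higher) and endothelial markers, mostly Kdr (290 to 469 and 846 to 993, 1 of 3 tested higher), were higher in knockout without overlap. The dendritic cell sum was mostly Kmo (130 and 247 on average). Means of Flt3, Xcr1, Clec9a and Cd209a were higher in knockout as well, while those of Zbtb46 (19.7 and 16.8) and Ccr7 (17.2 and 15.5) were lower. The B or plasma cell sum was mostly Cd79b (51.5 and 140 on average). The defining B cell genes Cd79a and Pax5 and the endothelial genes Tek and Emcn were under 10 normalized reads in every group mean. The summed fibroblast or sarcoma markers, nearly all Fn1 (48500 and 43400 on average), overlapped (35265 to 64066 and 39936 to 56742), with 0 of 9 called. Means of most collagen and matrix genes in that list were lower in knockout macrophages, at 908 and 391 for Col3a1, 394 and 160 for Sparc, 264 and 82.9 for Dcn and 208 and 73.6 for Col1a2. Col1a1, near the floor, was not lower (6.32 and 6.51). The part of these in the lower lysosomal transcripts was not tested, and in bulk libraries fewer cells of a type and less RNA per cell cannot be told apart.

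In monocytes Scarb2 was the 1 gene of 37 that fell, and 0 rose (limma, adjusted p under 0.05), where 1.92% of all genes were called lower and 1.4% higher. Scarb2 stood at 4061, 4422, 4709 and 4248 normalized reads in wild-type monocytes and 3008, 2503, 2410 and 2329 in knockout monocytes, 0.588 of the wild-type mean. Every knockout library lay far below every wild-type library, and the difference of -0.55 ± 0.06 (SE; limma adjusted p = 0.00043) held in all of the 13 alternatives. Within 1 Mb of Scarb2, 3 of 20 tested genes were called in monocytes, where 427 of all 12867 genes tested were called. Here too, whether its value is shared with its neighbourhood was not tested. The median over the 37 was -0.08, against -0.01 over all genes tested, and 30 of 37 lay below 0. In 6 of 37 every knockout library lay below every wild-type library, against 6.13% of all genes: Scarb2, Glb1, Man2b1, Smpd1, Lipa and Atp6v1b2.

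The glycosidases lay below 0 in 10 of 10 in monocytes, with a median of -0.13, although none passed and the count at an unadjusted p under 0.05 over all 37 genes was 12, all lower, where 1259 of 12867 genes were lower and 981 higher. Man2b1 stood at 15450, 18125, 19336 and 18456 normalized reads in wild type and 15004, 14424, 14448 and 14206 in knockout monocytes (limma adjusted p = 0.0905). Glb1 stood at 1014, 1168, 1316 and 1169 against 955, 986, 974 and 792 (adjusted p = 0.112). The authors' deposited table called both, as did the fit of all 16 libraries, and Man2b1 was also called without wild-type mouse 1. That fit had 5 of 37 lower, and the authors' deposited table had 7 lower and 0 higher. Without wild-type mouse 1 the count was 2. Atp6v1b2 stood at 0.860 of the wild-type mean, Lipa at 0.820 and Smpd1 at 0.837, each without passing. The authors' deposited table called all 3 lower, and the fit of all 16 libraries called Atp6v1b2 and Lipa. Cd63, whose wild-type monocyte libraries ran from 1094 to 2455, lay at -0.02 ± 0.16 (SE), against -0.43 ± 0.05 in macrophages. Whether a fall of that size could be called at the monocyte spread was not tested. Atp6v1a lay at -0.12, Atp6v0d2 at 0.33 ± 0.69 (SE), Tfeb at -0.08 and Tfe3 at 0.05, and none of these passed. Marker sums that did not overlap between the genotypes in monocytes were those of red blood cells (1430 to 3569 in wild type and 309 to 1274 in knockout) and dendritic cells (339 to 718 and 729 to 1588). In the latter Cd209a (9.12 and 422 on average) and Kmo (208 and 321) were higher, while Zbtb46 and Ccr7 were lower. Neutrophil sums overlapped (1667 to 3565 and 349 to 9131, 1 of 5 tested higher). Among them Ngp averaged 0.926 and 1940 and Ltf 11.8 and 619, while S100a8 averaged 1780 and 417 and Cxcr2 118 and 31.3. The part of these markers in the values above was not tested.

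Whether the effect of the knockout differed between the cell types was tested over all 16 libraries. None of the 37 genes passed (limma, 0 of 37, where 0.617% of all genes were called in either direction), and voom on the recovered reads and the fit with the mouse as a replicate block also gave 0. At an unadjusted p under 0.05 there were 6 of 37, with 1500 of 13134 over all genes. For Atp6v1a the difference of effects, macrophages minus monocytes, was -0.23 ± 0.08 (SE; limma adjusted p = 0.284, unadjusted p = 0.0154). Cd63 (-0.41, adjusted p = 0.389), Tpp1 (-0.12, 0.425) and Npc2 (-0.17, 0.357) had the same sign, while Scarb2 (0.20, 0.313) and Galns (0.18, 0.415) had the other. For Atp6v0d2 the difference of effects was -1.52 ± 0.79 (SE; limma adjusted p = 0.51). A fall called in macrophages and not in monocytes is therefore not shown to differ between them.

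A further 81 lysosomal genes outside the 38, listed by known function, were read beside them, and 77 were tested. In knockout macrophages 11 fell and 0 rose (median -0.08), where 3.13% of all genes were called lower and 2.57% higher. Of 24 other hydrolases and cofactors 5 fell, led by the acid phosphatase gene Acp5 (7984 to 4504 normalized reads, adjusted p = 0.00562) and the hyaluronidase gene Hyal2 (469 to 336, adjusted p = 0.0121). Of 23 other membrane proteins 3 fell, led by Hgsnat, which acetylates heparan sulfate in the same degradation pathway as Naglu (6429 to 4020, adjusted p = 0.000155), and the sialic acid exporter gene Slc17a5 (799 to 570, adjusted p = 0.00346). Of 9 other V-ATPase genes Atp6v1g1 fell (2913 to 2477, adjusted p = 0.0434). Of 21 genes for related transcription factors, their upstream machinery and autophagy targets, 2 fell. They were Gpnmb, a transmembrane glycoprotein gene known as a target of these factors (180 to 92.7, adjusted p = 0.0235), and Tfec, a relative of TFEB (231 to 135, adjusted p = 0.0246). Both were higher in monocytes, with wild-type and knockout means of 993 and 984 for Gpnmb and 688 and 495 for Tfec. Hgsnat was the 1 of 77 whose knockout effect differed between the cell types, with a difference of effects of -0.41 (limma adjusted p = 0.0269). Between cell types 31 of 77 were higher and 19 lower in wild-type macrophages, where 31.7% of all genes were called in each direction. In knockout macrophages 36 were higher and 16 lower, where the shares of all genes were 31.0% and 29.6%. The other hydrolases resembled the glycosidases in direction, with 16 of 24 higher and 1 lower in wild type and a median of 0.37.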

How the data were processed

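RNA from sorted cells was made into libraries from 5 ng with the SMART-Seq v4 kit, per the labels' protocols. The submitters' processing notes name bcl2fastq 2.19.0.316, STAR 2.7.2b, DESeq2 and GRCm38, without roles. The authors deposited log2 values for 30819 genes in 16 libraries. The transform is not named and behaves as a regularized logarithm. The authors' deposited tables of wild type against knockout hold, per the file headers, a base mean (a signal: the mean of reads over size factors), log2 fold changes with standard errors, a Wald statistic (a score) and p-values with adjusted p-values, whose sign was turned here to knockout minus wild type. The matrix held 0 columns of other samples.

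Inverting the transform, with the base mean as anchor, gave back the reads. Over the 20443 genes whose base mean was 1 or more, 83.4% of values lay within 0.05 of a whole read, and 44.4% above a base mean of 1000, where the median distance was 0.00221% of the value. Recovered reads gave normalized reads, ratios and voom.

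The main test was limma 3.58.1 (R 4.3.3) on the deposited log2 values, with trend and robust estimation, on genes with a linear value of at least 10 in at least 4 libraries. A call needed an adjusted p under 0.05 by Benjamini-Hochberg over all genes tested. Each comparison used its 8 libraries, and the difference of effects all 16. An exact permutation of 4 against 4 cannot go below p = 0.0286. Alternatives were no filter, TMM scaling, all 16 libraries in 1 fit, voom, each library left out, the mouse as a block and, between genotypes, the authors' deposited table. The fits were also run on simulated data. The changes planted there were larger than most genotype differences described here, so that run does not speak for differences of this size. Both cell types came from each mouse, per the titles, so mice pair the libraries. The correlations of deviations from group means within a mouse were 0.0306 to 0.417 in wild type and 0.0517 to 0.211 in knockout.

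All 38 members were accounted for by group. A rule set which were given with every library's value: the regulators, each member called between genotypes, and the 2 largest rises and falls of each group between cell types. Other members were given by value or range. Outside them, the 2 genes per list with the smallest adjusted p between genotypes were named. Some other lysosomal genes are not reported here. The members and lists were chosen with earlier results of these data known. Positions and exon lengths are from GENCODE M21, sequences from RefSeq.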

Additional observations from a re-analysis of the deposited data

Results flagged for a closer look

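Of 148 sets of 4 libraries (37 genes in 4 groups), 7 had 1 library standing apart by Dixon's test, where chance gives about 1 in 20. In normalized reads, Glb1 was lowest in knockout monocytes of mouse 9 (792, against 955 to 986 in the others). Gaa was lowest in knockout monocytes of mouse 8 (2309, against 2564 to 2596). Lamp2 was lowest in knockout macrophages of mouse 6 (17639, against 21059 to 21547). Cd68 was lowest in wild-type monocytes of mouse 1 (15681, against 19820 to 20571). Npc1 was highest in wild-type macrophages of mouse 3 (946, against 729 to 764), and so was Atp6v1b2 (10220, against 9846 to 9897). Tfe3 was lowest in wild-type monocytes of mouse 3 (4364, against 4678 to 4733).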

How the results depend on the processing

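No direction of a called gene among the 37 reversed under any alternative run. In macrophages the genotype calls were 4 to 7 of 37 with single libraries left out and 5 with all 16 libraries in 1 fit, against 10, while over all genes 458 to 656 were called with a library left out, against 717. In monocytes, against 1 of 37 and 427 genes, the fit of all 16 libraries gave 5 of 37 and 981 genes, and 7 of 37 and 1329 genes were called in the authors' deposited table. Leaving out single libraries gave 1 to 2 of 37 and 237 to 459 genes. For the difference of effects, the fit with the mouse as a replicate block called 251 genes against 81, and 48 to 125 with a library left out, with 0 of 37 in each. The block changed 1 call among the 37, that of Scarb2 between cell types in wild type, and no other. The cause of these shifts was not tested. Single-gene calls lost their side of the threshold in 47 of the 481 gene and alternative pairs in macrophages and gained it in 2, and gained it in 11 of 481 in monocytes. Each group held 4 mice, the log2 scale is compressed, and values of low genes such as Atp6v0d2 carry the widest errors.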
